A study of Homo sapiens with 39 samples.

Results

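The nuclear genes that encode subunits of the oxidative phosphorylation complexes were followed in U937 cells through a culture of 72 h with or without G-rich DNA oligonucleotides. Members were taken by gene symbol: every symbol of the NDUFA, NDUFB, NDUFC, NDUFS and NDUFV series, the SDH subunits, all UQCR symbols, COX4 to COX8 and all ATP5 symbols, without pseudogenes. This gave 82 of the 18132 genes with a probe set of a single symbol, and the brightest probe set over the 39 arrays stood for each gene. By complex, 35 members belonged to complex I, 3 to complex II, 8 to complex III, 17 to complex IV and 19 to complex V. Values are the deposited log2 intensities, on which a difference of 1 is a doubling.

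U937 is an established human line from a histiocytic lymphoma with the features of immature myeloid cells. Exponentially growing cells were kept untreated or received 10 µM of Pu27, Pu9- or Pu5-, G-quadruplex-forming oligonucleotides that share G-rich sequence with a control element of the c-MYC promoter and differ from each other in length. Untreated cells were collected at 0, 24, 48 and 72 h and treated cells at 24, 48 and 72 h, giving 13 groups of 3 arrays. The labels call the replicates repeat experiments and say no more about the cultures, so every p-value below reflects the spread among these arrays, which may be technical.

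Complexes I to IV pass electrons from NADH and succinate to oxygen and, except for complex II, pump protons across the inner mitochondrial membrane. Complex V, the ATP synthase, lets the protons back through a rotating ring of c subunits and makes ATP. Most subunits are encoded in the nucleus, while a core set of hydrophobic subunits comes from mitochondrial DNA and is not analysed here. The factors NRF1, YY1 and the ETS-family factor GABP are known regulators of many of these genes, and MYC is known to act on mitochondrial genes through the E-box.

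The members lay among the bright genes of these arrays: their mean per array ran from 10.78 to 11.03, against array medians of 5.82 to 5.94 over all genes. Of the 14 myeloid marker genes listed for the line, 13 were measured and 8 had a mean over 8, while SPI1, MPO, ITGAM, CSF1R and CD14 were dimmer. The markers of T cells, epithelial cells and fibroblasts had no gene over 8, and among B cell markers only PAX5 exceeded it. The mean of the measured markers per array ran from 8.36 to 8.81 for myeloid, 4.45 to 4.88 for T cell, 6.07 to 6.57 for B cell and 6.16 to 6.78 for erythroid genes. In RNA from whole cultures, fewer cells of a kind and less RNA per cell cannot be told apart, and the normalisation of all arrays to 1 distribution leaves a change in total RNA per cell unmeasured.

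The promoters of 3 members are shown because these members carry the results below: UQCRC2, which encodes a core protein of complex III, rose between 24 and 72 h, while UQCRQ, which encodes a small ubiquinone-binding subunit of the same complex, and ATP5MC1, which encodes the c subunit of the ATP synthase, fell. Each run is the 250 bases before the annotated start of the gene, from RefSeq on GRCh38.p14, 5′ to 3′ on the plus strand at chr16:21953111-21953360, chr5:132866392-132866641 and chr17:48892537-48892786. Capitals mark an ETS motif match (CCGGAAGT).
UQCRC2: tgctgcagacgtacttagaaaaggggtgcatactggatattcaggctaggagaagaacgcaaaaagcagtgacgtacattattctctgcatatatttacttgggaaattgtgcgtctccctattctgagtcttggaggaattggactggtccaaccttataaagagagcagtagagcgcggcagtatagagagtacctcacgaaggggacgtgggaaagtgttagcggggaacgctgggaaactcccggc
UQCRQ: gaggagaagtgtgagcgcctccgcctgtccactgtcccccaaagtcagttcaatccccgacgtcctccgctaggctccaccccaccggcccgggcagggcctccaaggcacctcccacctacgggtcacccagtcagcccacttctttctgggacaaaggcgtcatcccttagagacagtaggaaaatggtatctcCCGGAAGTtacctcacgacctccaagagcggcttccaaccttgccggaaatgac
ATP5MC1: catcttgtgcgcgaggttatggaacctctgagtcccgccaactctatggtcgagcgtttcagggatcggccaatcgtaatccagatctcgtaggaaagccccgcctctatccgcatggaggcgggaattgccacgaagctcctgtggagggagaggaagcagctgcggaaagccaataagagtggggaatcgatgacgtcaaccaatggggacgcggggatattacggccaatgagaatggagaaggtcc
UQCRQ alone among these holds a match to any of the motifs searched. The search covered both strands of the 250 bases for the E-box (CACGTG), the NRF1 motif (the palindrome made of GCGCA and its reverse complement), the ETS motif (CCGGAAGT) and the YY1 motif (AAGATGGC), none of which contains another. A promoter entry was matched by symbol for 67 of the 82 members. The ETS motif was in 10 of them (14.9%, against 3.64% of all 27305 promoters), the E-box in 6 (8.96% against 6.49%), the NRF1 motif in 3 (4.48% against 1.13%) and the YY1 motif in 1 (1.49% against 1.37%). These matches describe letters in a window and not binding. The 27305 promoters were not limited to genes measured on these arrays, so the shares compare unlike sets.

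The study's main question was how the oligonucleotides act on the cells, and for these genes the differences at each time were small. Over the 9 time-matched comparisons with untreated cells and the 3 means over the times, 984 member values in all, limma with Benjamini-Hochberg adjustment over all 18132 genes made 2 member calls at an adjusted p under 0.05. Both were UQCRQ with Pu27. No member differed by more than 0.5. The largest rise was that of UQCRQ at 72 h. The largest fall was that of COX4I2, a low-oxygen isoform of complex IV subunit 4 with a dim probe set, with Pu9- at 24 h (-0.27, not called). The 3 oligonucleotides share their untreated control arrays, so their values are given side by side and not as independent results.

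In untreated cells at 72 h UQCRQ read 10.11, 9.94 and 9.94, and with Pu27 it read 10.46, 10.36 and 10.41. All 3 Pu27 arrays lay above all 3 untreated arrays. The difference was 0.41 (SE 0.08, 95% interval 0.25 to 0.58, n = 3 arrays a group, limma adjusted p = 0.0015 by Benjamini-Hochberg), in a comparison in which 5.08% of all genes were called (2.94% higher, 2.15% lower) and 1 of 82 members. With Pu9- the gene read 10.21, 10.29 and 10.24 at 72 h, a difference of 0.25 (95% interval 0.09 to 0.41, limma adjusted p = 0.12). With Pu5- it read 10.21, 10.31 and 10.13, a difference of 0.22 (95% interval 0.06 to 0.39, limma adjusted p = 0.25). The 72 h arrays of both oligonucleotides lay above all 3 untreated arrays, and neither difference passed the test.

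At 24 h the UQCRQ arrays of Pu27 and untreated cells overlapped (0.05, 95% interval -0.11 to 0.22), as they did at 48 h (0.14, 95% interval -0.03 to 0.30). The mean of the Pu27 differences over the 3 times was 0.20 (SE 0.05, limma adjusted p = 0.0069), with 3.98% of all genes called (2.79% higher, 1.19% lower). A moderated F test of whether the Pu27 effect on UQCRQ changed over time gave an adjusted p of 0.39 in limma. The UQCRQ value rests on a single bright probe set: the gene's other probe sets had means of 5.36 and 3.28 and differences of 0.07 and -0.14 at 72 h, neither called. With the mean of all 3 probe sets the difference was 0.11 (limma adjusted p = 0.44), with a fit of the compared groups alone it kept its size at an adjusted p of 0.067, and without all replicate 2 or all replicate 3 arrays the adjusted p was 0.11 or 0.12.

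The 3′ minus 5′ difference of the ACTB control probe sets, a measure of RNA quality, was higher in the Pu27 group at 72 h, at 2.24 ± 0.08 (SD, n = 3), than in its untreated counterpart, at 2.05 ± 0.07. With that difference as a covariate the UQCRQ value was 0.49 (limma adjusted p = 0.00036).

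The other members that came nearest to a call with Pu27 at 72 h were NDUFS8, an iron-sulphur core subunit of complex I (0.29, SE 0.10, limma adjusted p = 0.078), ATP5F1C, the gamma subunit of the ATP synthase (-0.25, SE 0.08, limma adjusted p = 0.078), and NDUFS6, an accessory subunit needed late in complex I assembly (0.20, SE 0.07, limma adjusted p = 0.086). NDUFS8 was called with the ACTB covariate (0.36, limma adjusted p = 0.038) and NDUFS6 with dim genes left out (limma adjusted p = 0.047). Next in complex I, NDUFC2 read 0.23 (limma adjusted p = 0.14). In complex II the nearest were SDHC at 0.10 and SDHA at 0.05, in complex III UQCR10 at 0.14, in complex IV COX8A at 0.21 and COX6B1 at 0.15, and in complex V ATP5MC1 at 0.23. The median over the 82 members was 0.04 with Pu27 at 72 h, the same as the 0.04 over all genes, and 11 members had an unadjusted p under 0.05.

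At 24 and 48 h no member was called in any arm. For Pu27 the share of all genes called was 0.0662% at 24 h and 0.193% at 48 h, and 2 and 3 members had an unadjusted p under 0.05 in limma. For Pu9- the shares were 0.0165% at both times, with 5 and 0 members under 0.05 unadjusted, and for Pu5- they were also 0.0165%, with 4 and 2 members. At 72 h, again with no member called, the shares were 0.96% for Pu9- and 0.778% for Pu5-, each with 5 members under 0.05 unadjusted, and for the means over the times they were 0.0882% (9 members unadjusted) and 0.254% (4 members). Member medians in these comparisons ran from 0.00 to 0.06.

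By size alone, the largest differences at 24 h were COX4I2 at -0.20 and ATP5F1D at -0.19 with Pu27, COX4I2 at -0.27 and UQCRHL at 0.26 with Pu9-, and UQCRHL at 0.33 and ATP5MGL at 0.32 with Pu5-. UQCRHL encodes a hinge-like protein nearly identical to that of UQCRH, and its probe set may not separate the 2 genes. Its arrays varied widely within groups: the untreated ones at 24 h read 10.63, 11.65 and 10.89, while UQCRH read 12.52, 12.53 and 12.57 in the same arrays. Its pooled SD over the groups was 0.32, against 0.06 for UQCRH and 0.34 for UQCRC1, the one member above it, and none of the UQCRHL comparisons passed the test.

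Across pairs of oligonucleotides no member was called in any of the 3 comparisons of means over the times (9 arrays an arm), where limma called 1.38% of all genes for Pu27 against Pu9-, 0.248% for Pu27 against Pu5- and none for Pu9- against Pu5- (458 genes and 1 member at an unadjusted p under 0.05). For Pu27 against Pu9- the largest difference was NDUFA5, an accessory subunit of complex I (-0.19, 95% interval -0.33 to -0.05, limma adjusted p = 0.21), and for Pu27 against Pu5- it was again NDUFA5 (-0.20, 95% interval -0.34 to -0.06, limma adjusted p = 0.29). UQCRQ was 0.11 higher with Pu27 than with Pu5- (95% interval 0.02 to 0.21, limma adjusted p = 0.40) and 0.09 higher than with Pu9- (95% interval -0.00 to 0.18, limma adjusted p = 0.46). For Pu9- against Pu5-, oligonucleotides that differ in length, the members' intervals ran from -0.29 to 0.34 in all. In the pairs with Pu27, 4 members each had an unadjusted p under 0.05. The intervals leave room for differences of these sizes, so the arms are not shown to act alike.

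Tests of whether an oligonucleotide's effect changed with time called no member: in limma's moderated F test 0.0441% of all genes were called for Pu27, 0.00552% for Pu9- and 0.0441% for Pu5-, and 3, 2 and 2 members had an unadjusted p under 0.05.

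**Figure D1:**
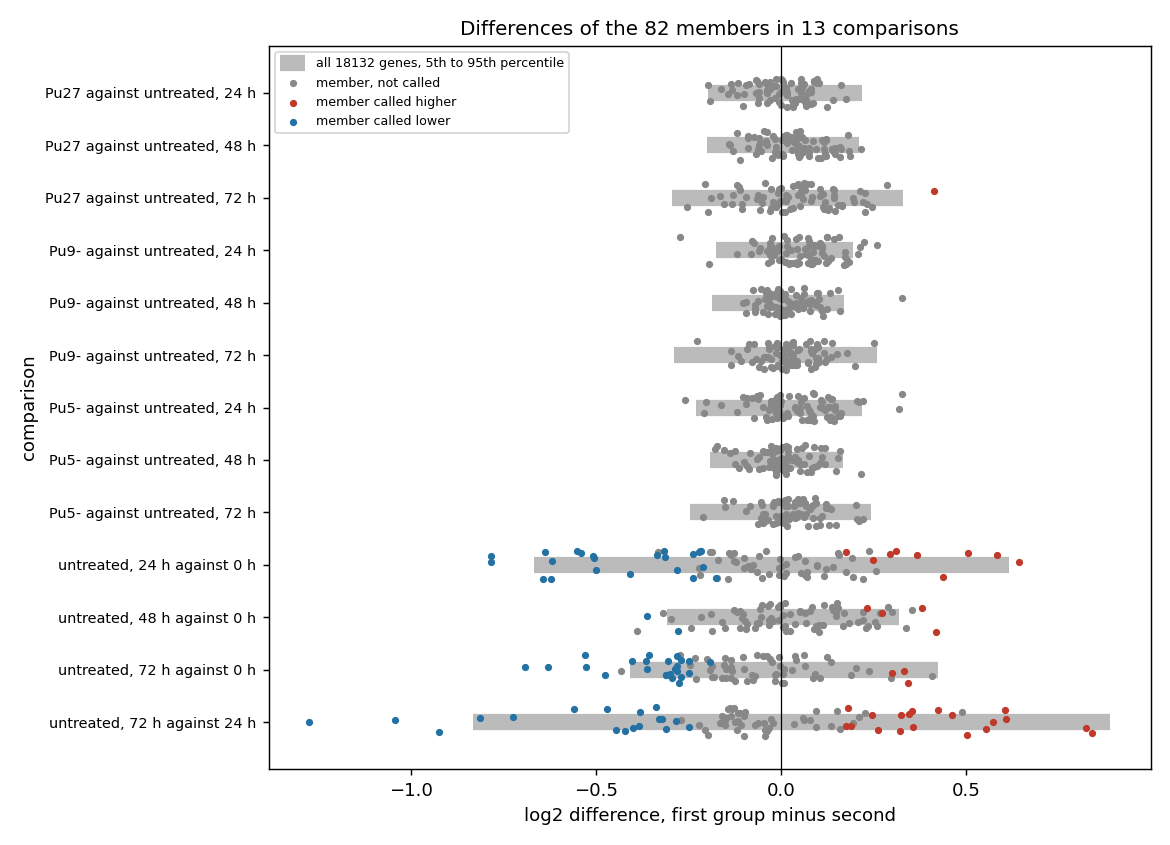
Log2 difference (x axis) of each of the 82 members, as points, in 13 comparisons (y axis), with red and blue points for members called higher and lower and grey bars for the 5th to 95th percentile of all 18132 genes. With the oligonucleotides only UQCRQ with Pu27 at 72 h (0.41) is coloured, whereas the untreated time comparisons hold 6 to 37 called members.

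More members changed with time in culture than with any oligonucleotide. In untreated cells limma called 32 members between 0 and 24 h (28.6% of all genes were called, 39.0% of members), 6 between 0 and 48 h (5.18% and 7.32%), 27 between 0 and 72 h (15.6% and 32.9%) and 37 between 24 and 72 h (35.5% and 45.1%). Their median changes were -0.07, 0.02, -0.14 and -0.08 in that order, beside -0.03, -0.00, -0.03 and 0.00 over all genes.

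**Figure D2:**
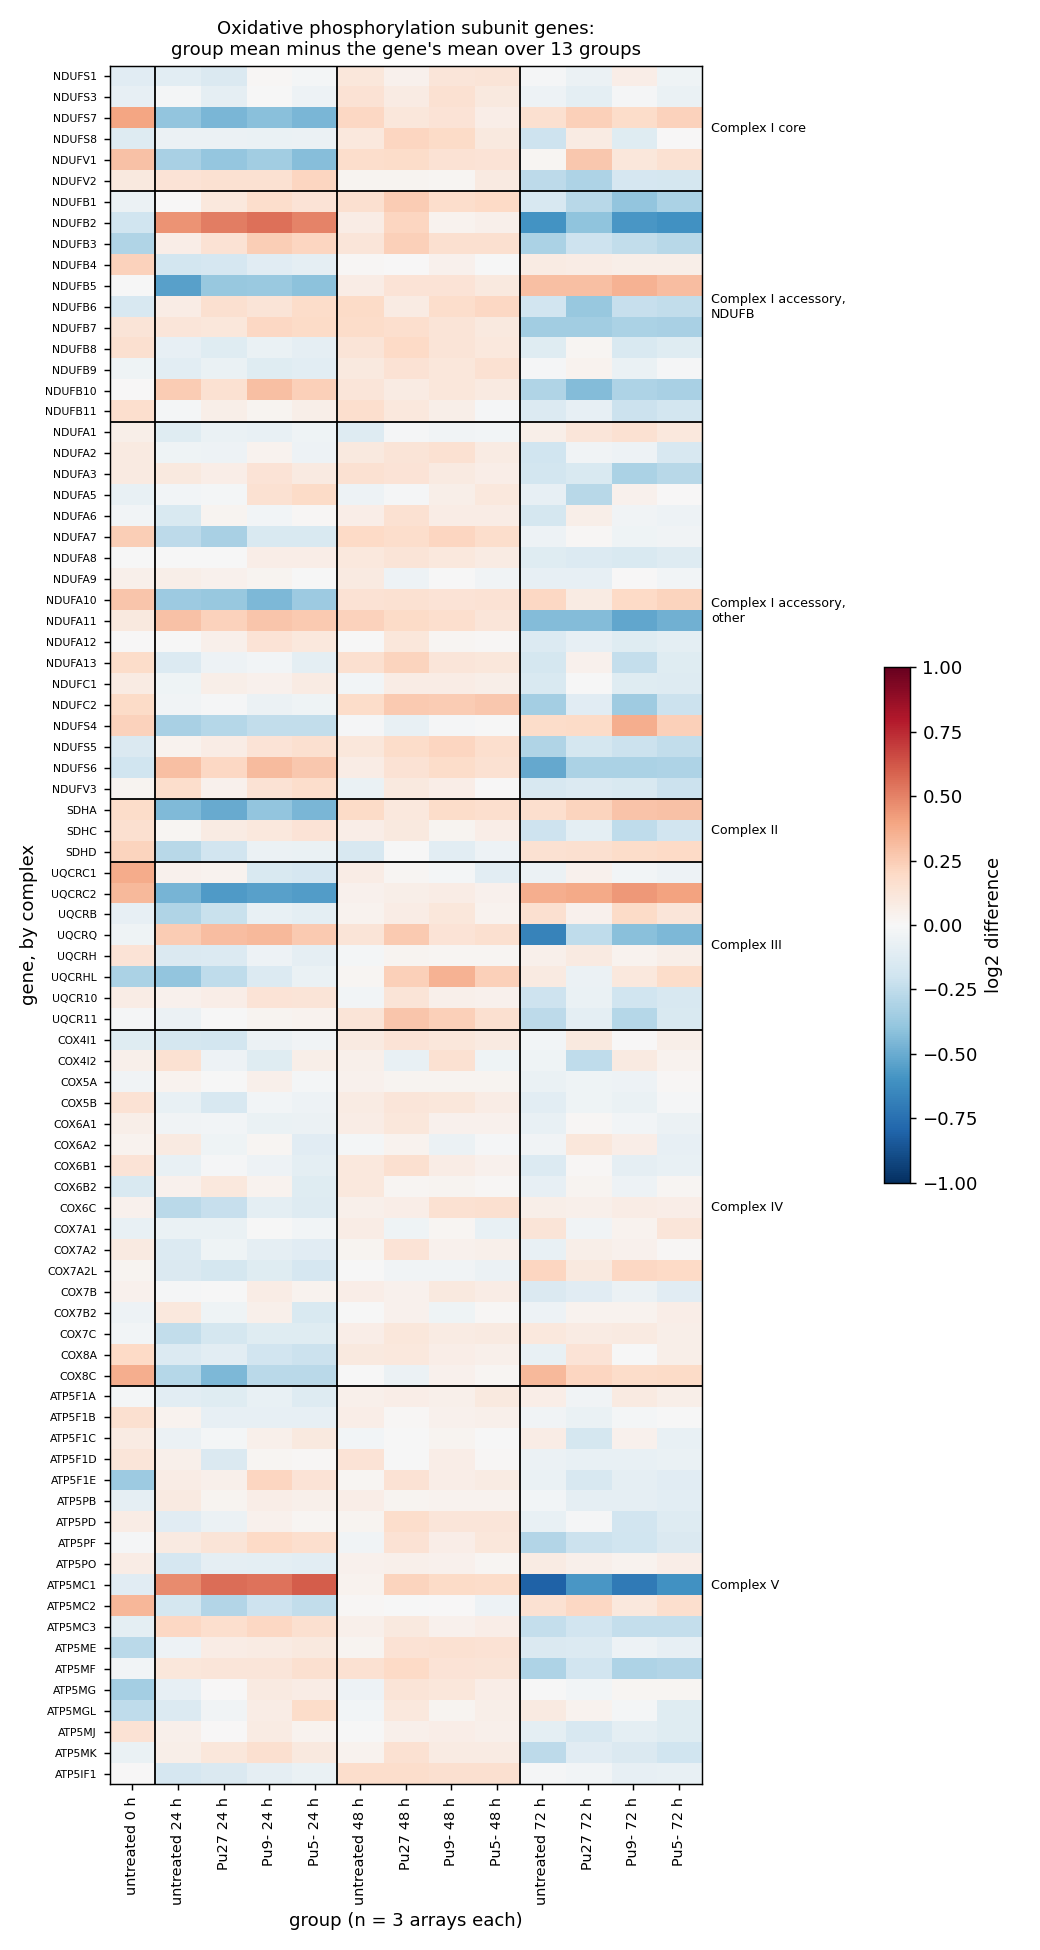
Heat map of the 82 members (rows, by complex) in the 13 groups (columns, by time, n = 3 arrays each), coloured by the group's mean minus the gene's mean over the 13 groups in log2 units, with the colour range ending at -1 and 1. Columns of one time look alike whichever arm they come from, and rows such as ATP5MC1, NDUFB2, UQCRQ, UQCRC2 and SDHA change between the blocks of 24, 48 and 72 h.

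Between 0 and 24 h, 9 members rose and 23 fell (14% and 14.6% of all genes). The rises were NDUFB2 at 0.64, NDUFB3 at 0.37 and NDUFB10 at 0.25, which are membrane-arm accessory subunits of complex I, NDUFS6 at 0.51, UQCRQ at 0.30, and in the ATP synthase ATP5MC1 at 0.58, ATP5F1E at 0.44, ATP5MC3 at 0.31 and ATP5PB at 0.18. The falls were led by NDUFS7, the core subunit with the last iron-sulphur cluster before ubiquinone (-0.78), and UQCRC2 (-0.78). Next came COX8C, an isoform of complex IV subunit 8 described in testis (-0.64, from a single probe set whose specificity was not tested), NDUFA10 (-0.64), SDHA, the flavoprotein that oxidises succinate (-0.62), and NDUFV1, the subunit that takes electrons from NADH (-0.62). NDUFS4 fell by 0.55, NDUFB5 by 0.54, NDUFA7 by 0.51 and ATP5MC2 by 0.50. The count of 32 became 19 in a fit of these groups alone and 18 without all replicate 2 arrays. With the mean of all probe sets of a gene, UQCRQ read 0.02 (limma adjusted p = 0.89) and ATP5PB 0.10 (limma adjusted p = 0.35). The NDUFB10 and ATP5PB calls each ended when any of 5 of the 6 arrays was left out, the untreated 24 h array of replicate 1 being the exception for NDUFB10 and the 0 h array of replicate 2 for ATP5PB.

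By complex, the 0 to 24 h changes comprised 4 rises and 10 falls among the 35 members of complex I, 0 and 2 among the 3 of complex II, 1 and 2 among the 8 of complex III, 0 and 7 among the 17 of complex IV, and 4 and 2 among the 19 of complex V. All 7 changed complex IV genes fell, among them COX6C by 0.31 and COX8A by 0.34, which are small subunits around the catalytic core.

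At 48 h there were 6 calls against 0 h, 4 higher and 2 lower (3.04% and 2.14% of all genes). NDUFB3 (0.42), ATP5F1E (0.38), NDUFS6 (0.27) and NDUFS3 (0.23), a core subunit of complex I, were higher than at 0 h, while COX8C (-0.36) and UQCRC2 (-0.28) were lower. The count was 3 without the untreated 48 h array of replicate 1 or of replicate 2, 0 without all replicate 2 arrays and 0 in a fit of these groups alone, while 26 members had an unadjusted p under 0.05. Without the untreated 0 h array of replicate 1 the COX8C and UQCRC2 calls ended (adjusted p = 0.12 and 0.20), without the 48 h array of replicate 1 that of NDUFS6 (0.054), and the ATP5F1E and NDUFS3 calls ended without any of 5 of the 6 arrays each. UQCRC2 was also lost without the 48 h array of replicate 1 or of replicate 2. The calls of NDUFB3, NDUFS3 and UQCRC2 ended with the mean of all probe sets of a gene. The values were then 0.26, 0.07 and -0.23 (limma adjusted p = 0.085, 0.78 and 0.10).

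Between 0 and 72 h, 3 members rose and 24 fell (7.61% and 7.99% of all genes). NDUFB5 rose by 0.30, ATP5MG, subunit g of the ATP synthase, by 0.33, and the dim ATP5MGL by 0.34 from a mean of 4.15. The largest falls were ATP5MC1 (-0.69), UQCRQ (-0.63), NDUFC2 (-0.53), NDUFA11 (-0.53), NDUFB7 (-0.47), NDUFB2 (-0.40), SDHC, a membrane anchor of complex II (-0.37), NDUFV2 (-0.36), NDUFA13 (-0.36) and NDUFB10 (-0.31). Of the 35 complex I members 13 fell and 1 rose. Of the 17 in complex IV 4 fell and none rose, which with 4 falls and 2 rises in complex V leaves 1 fall in complex II and 2 in complex III. The count was 16 without the untreated 0 h array of replicate 1, and the calls of SDHC, NDUFA13, ATP5MG and ATP5MGL ended without that array (adjusted p = 0.19, 0.16, 0.074 and 0.098) as well as without others, among them the 72 h array of replicate 2 for NDUFA13 (0.082), ATP5MG (0.17), ATP5MGL (0.25) and NDUFB10 (0.067) and that of replicate 1 for SDHC (0.070). Without the 72 h array of replicate 3 the NDUFB2 call ended at an adjusted p of 0.0502. The count was 5 without all replicate 2 arrays, 10 without all replicate 3 arrays and 7 in a fit of these groups alone. The ACTB 3′ minus 5′ difference was 1.91 ± 0.09 (SD, n = 3) at 0 h and 2.05 ± 0.07 at 72 h. With that difference as a covariate the SDHC, NDUFA13, NDUFB10 and ATP5MGL calls ended (limma adjusted p = 0.062, 0.076, 0.073 and 0.092). With the mean of its probe sets NDUFC2 read -0.26 (limma adjusted p = 0.060).

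Between 24 and 72 h the calls were 19 rises and 18 falls (17.7% and 17.7% of all genes). These changes are counted from the 24 h level and not from 0 h. In untreated cells ATP5MC1 read 9.87, 9.92 and 9.97 at 0 h, 10.52, 10.53 and 10.46 at 24 h, 10.13, 10.09 and 10.00 at 48 h, and 9.15, 9.31 and 9.22 at 72 h. All arrays of 24 h lay above those of every other time and all arrays of 72 h below them. The change from 24 to 72 h was -1.28 ( SE 0.09, 95% interval -1.46 to -1.09, limma adjusted p = 1.9e-13).

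ATP5MC1, ATP5MC2 and ATP5MC3 encode precursors with different targeting peptides and the same mature c subunit, and they did not move together. ATP5MC3 read 13.58, 13.67 and 13.66 at 24 h and 13.23, 13.20 and 13.16 at 72 h, a change of -0.45 (SE 0.06, limma adjusted p = 4.3e-07), again with no overlap. Its 3 other probe sets changed by -0.53, -0.57 and -0.72. ATP5MC2 read 11.56, 11.33 and 11.64 at 24 h and 11.75, 11.80 and 11.95 at 72 h, a rise of 0.32 (SE 0.11, limma adjusted p = 0.025), and at 0 h it had read 12.28, 11.94 and 11.83. Its 24 and 72 h arrays did not overlap either, so ATP5MC1 and ATP5MC3 fell while ATP5MC2 rose. ATP5MC1 and ATP5MC2 were each measured by 1 probe set, with no other to set beside it. The specificity of these probe sets was not tested.

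**Figure D3:**
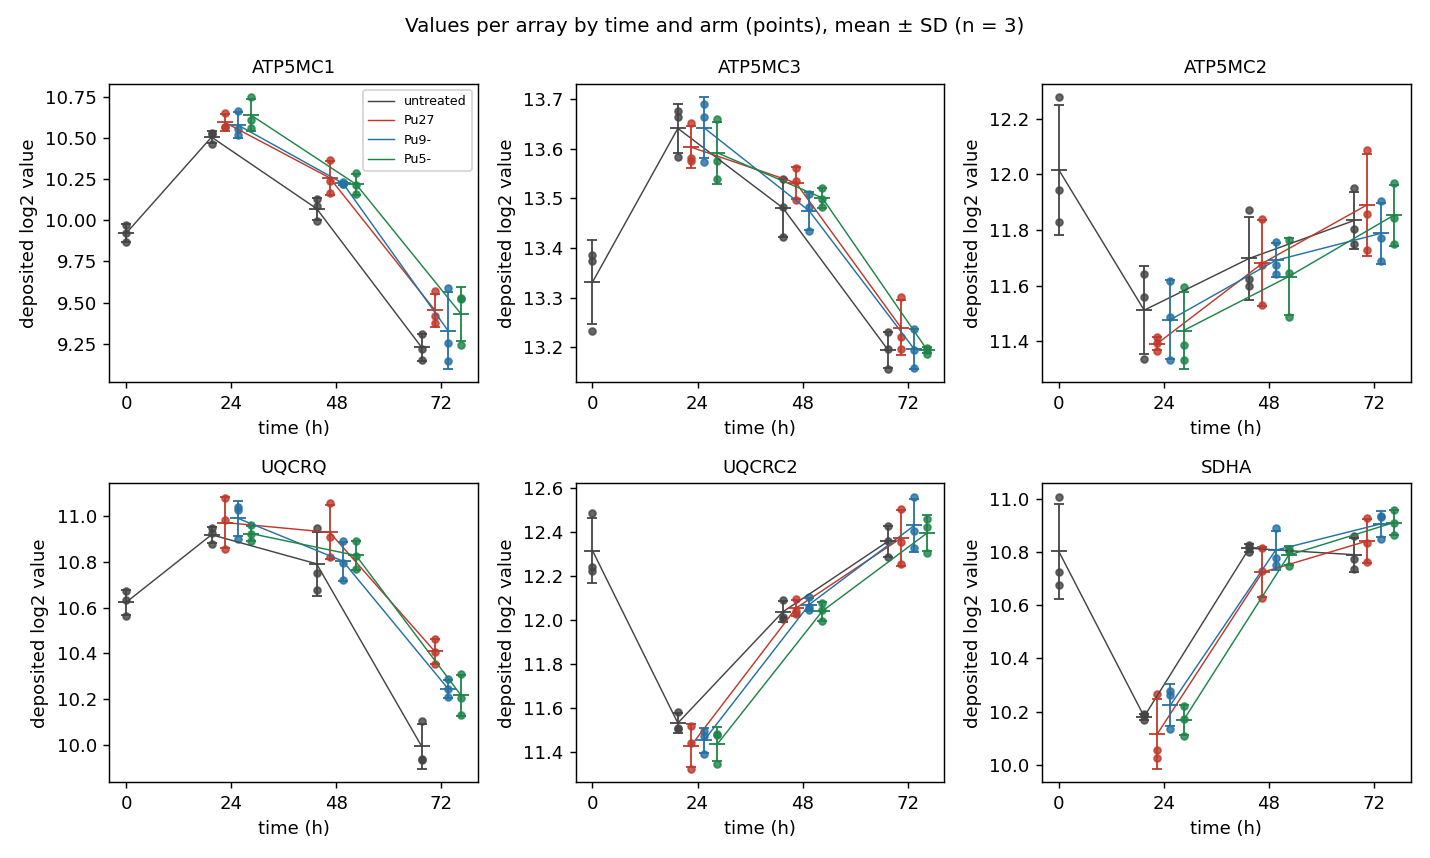
Deposited log2 values (y axis, with its own range in each panel) against time in hours (x axis) for ATP5MC1, ATP5MC3, ATP5MC2, UQCRQ, UQCRC2 and SDHA, with a point per array, the mean and SD of each group (n = 3) and a colour per arm. ATP5MC1 goes from 10.51 to 9.23 between 24 and 72 h in untreated cells and UQCRC2 from 11.53 to 12.36, with the treated arms close by at each time.

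Members of complex III also went both ways. UQCRC2 read 12.49, 12.22 and 12.24 at 0 h, 11.51, 11.50 and 11.58 at 24 h, 12.01, 12.01 and 12.09 at 48 h, and 12.28, 12.36 and 12.43 at 72 h. The 24 h arrays were the lowest, and the rise from 24 to 72 h was 0.83 (SE 0.08, 95% interval 0.66 to 0.99, limma adjusted p = 1.8e-10). The gene's other probe set rose by 0.88. UQCRQ read 10.88, 10.93 and 10.95 at 24 h and 10.11, 9.94 and 9.94 at 72 h, so that its lowest 24 h array was above its highest 72 h array. Its change was -0.92 ( SE 0.08, limma adjusted p = 1.5e-11). UQCRB, another ubiquinone-binding subunit, rose by 0.46, while UQCR10, a small subunit near cytochrome c1, fell by 0.25. The UQCRB value turned to -0.11 (limma adjusted p = 0.34) with the mean of its 4 probe sets, of which the other 3 had means of 6.31, 6.29 and 3.85.

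In complex I, 7 members rose and 11 fell. NDUFB2 read 10.85, 11.05 and 10.82 at 24 h and 9.91, 9.93 and 9.75 at 72 h, a change of -1.05 (SE 0.11, limma adjusted p = 7.4e-10). NDUFS6 read 11.13, 11.18 and 11.11 at 24 h and 10.38, 10.34 and 10.25 at 72 h, a change of -0.82 (SE 0.07, limma adjusted p = 4.5e-12). Neither gene's arrays overlapped between the times, and each gene was measured by 1 probe set. NDUFB5, a membrane-arm accessory subunit like NDUFB2, went the other way, from 9.78, 10.03 and 10.05 to 10.82, 10.82 and 10.74, a rise of 0.84 (SE 0.07, limma adjusted p = 2.4e-11) that its other probe set showed at 0.96. Further falls were NDUFA11 at -0.72, NDUFB10 at -0.56, NDUFB7 at -0.47, NDUFV2 at -0.40 and NDUFB3 at -0.38. Further rises were NDUFA10 at 0.57, NDUFS7 at 0.55, NDUFS4 at 0.50 and NDUFV1 at 0.35. In the core, the NADH-side subunits NDUFV1 and NDUFV2, each measured by 1 probe set, thus changed in opposite directions.

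In complex II, SDHA rose by 0.61 (SE 0.08, limma adjusted p = 9.3e-08), from 10.19, 10.19 and 10.17 to 10.77, 10.86 and 10.74 without overlap. SDHD, a membrane anchor, rose by 0.43 (SE 0.15, limma adjusted p = 0.019), a call that ended without the untreated 24 h array of replicate 1 (adjusted p = 0.19) or the 72 h array of replicate 2 (adjusted p = 0.086). SDHC read -0.22 and was not called. In complex IV the 4 changed members all rose: COX8C by 0.61, COX7A2L, a protein that links complexes III and IV into supercomplexes, by 0.36, COX7C by 0.35 and COX6C by 0.32. In untreated cells COX8C had means of 9.91 at 0 h, 9.27 at 24 h and 9.87 at 72 h, and SDHA 10.80, 10.18 and 10.79. Against 0 h, no member of complex II or IV was called higher at 72 h. COX8C was measured by 1 probe set with a mean of 9.55, and its probe sequences were not analysed here. In complex V, ATP5PF (-0.38), ATP5MF (-0.42) and ATP5MK (-0.32), small subunits of the stalk and membrane part, fell with ATP5MC1 and ATP5MC3. ATP5PO, which joins the head to the stalk (0.25), and ATP5F1A (0.17) rose with ATP5MC2.

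The remaining tissue-specific isoforms were dim beside most other members, and none was called in the comparisons above. COX6B2 read -0.13 between 24 and 72 h, 0.04 without the untreated 24 h array of replicate 1 and -0.31, then called, without that of replicate 2. Means over the 39 arrays were 4.85 for COX4I2, 6.18 for COX6A2, 6.15 for COX6B2, 4.51 for COX7A1 and 2.87 for COX7B2, and the group means of each spanned 0.21 to 0.40. ATP5IF1, the inhibitor of the ATP synthase, had a mean of 12.26 and changed by 0.16 between 24 and 72 h without a call. The steadiest member was COX5A, which binds to the matrix side of complex IV and whose group means spanned 0.11.

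Other probe sets of the called members gave the same direction where they were bright. Of 37 further probe sets with a mean of 7 or more, 35 had the sign of the brightest between 24 and 72 h, 30 were called in the same direction and 0 in the opposite one. Of 14 dimmer ones, 8 had the same sign and 1 was called the opposite way.

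The treated arms share no array with the untreated ones and their changes from 24 to 72 h are set beside the untreated ones. Between 24 and 72 h limma called 36 members with Pu27 (19 higher, 17 lower) where 36.4% of all genes were called (19.7% and 16.8%), 43 with Pu9- (15 and 28) where 35.5% were (17.5% and 18%), and 40 with Pu5- (14 and 26) where 36.1% were (18.5% and 17.5%). Over the 82 members the changes correlated with those of untreated cells at Pearson r = 0.935 for Pu27, 0.944 for Pu9- and 0.928 for Pu5-, a description across genes that share the array design, the normalisation and the time of collection. Of the 37 members called in untreated cells, 31, 33 and 30 were called the same way in the 3 arms, which is 83.8%, 89.2% and 81.1% of the untreated calls and 86.1%, 76.7% and 75.0% of each arm's own. Over all genes called in untreated cells the shares called the same way were 80.0%, 81.5% and 82.3%, with Pearson r over all genes of 0.912, 0.924 and 0.928, so the members' shares lay near those of all genes. No member was called the opposite way, and all 37 had the same sign in every arm.

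In all 4 arms 25 members were called in 1 direction, 10 higher and 15 lower at 72 h, which is 30.5% of members beside 25.3% of all genes (2283 higher and 2306 lower). ATP5MC1 fell in each, the values being -1.28 (untreated), -1.14 (Pu27), -1.25 (Pu9-) and -1.21 (Pu5-), and NDUFB2 by -1.05, -0.91, -1.13 and -1.10 in that order. UQCRC2 rose by 0.83, 0.94, 0.98 and 0.96, and SDHA by 0.61, 0.73, 0.68 and 0.74. UQCRQ read -0.92 in untreated cells, -0.56 in the Pu27 arm, -0.74 in the Pu9- arm and -0.71 in the Pu5- arm. NDUFS6 likewise read -0.82 against -0.52, -0.63 and -0.58, and the time tests of the oligonucleotide effects above did not call either gene. In 30 members (36.6%, beside 50.5% of all genes) no arm was called, including the catalytic beta subunit gene ATP5F1B, the core subunit genes NDUFS1, NDUFS3 and NDUFS8, and UQCRC1. The arrays of UQCRC1 varied most within groups (pooled SD 0.34), so its lack of a call does not show a steady level.

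**Figure D4:**
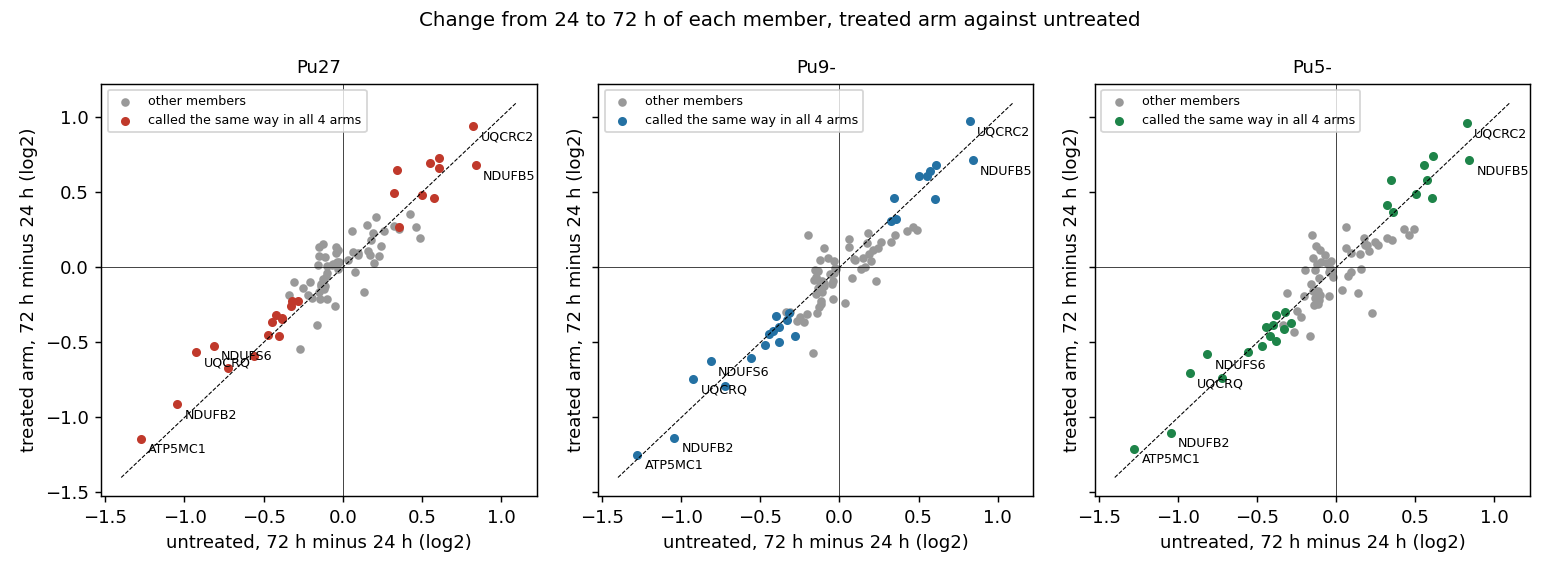
Change from 24 to 72 h of each of the 82 members with an oligonucleotide (y axis, log2) against that in untreated cells (x axis, log2), with 1 panel per oligonucleotide, coloured points for the 25 members called the same way in all 4 arms and a dashed line of equal change. The points lie along the line, from ATP5MC1 at the lower left to UQCRC2 and NDUFB5 at the upper right.

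Among members with a promoter entry, 12 of those that fell and 9 of those that rose in all 4 arms could be searched. The ETS motif was in 2 of the 12 (UQCRQ and ATP5MK) and in none of the 9, the E-box in 1 of each (NDUFA11 and NDUFS7), the YY1 motif in 1 of the 12 (ATP5PF) and the NRF1 motif in none. ATP5MC1 and UQCRC2, shown above, hold none of these runs of letters in the window.

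Genes for other mitochondrial functions set the members in context. Between 24 and 72 h in untreated cells, of 74 mitochondrial ribosomal protein genes 55 fell and 2 rose, with a median of -0.56, led by MRPL1 (10.43 at 24 h and 8.32 at 72 h, -2.10) and MRPL27 (-1.11). Of 35 genes for import, carriers and electron carriers 21 fell and 6 rose, with a median of -0.57, including the import receptor subunit TOMM22 (-1.25) and the chaperone TIMM10 (-1.33). Of 49 assembly factor genes 23 fell and 12 rose, with a median of -0.25, led by COX16 (-1.35) and COA7 (-1.16). Against these the 82 members, with 18 falls and 19 rises and a median of -0.08, had about as many rises as falls. In the Pu9- and Pu5- arms more members fell than rose, as given above.

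Of 27 genes for mitochondrial DNA expression and biogenesis 16 fell and 6 rose, with a median of -0.41. SLIRP, which binds mitochondrial RNA, fell by 1.25, while PPARGC1A, the coactivator known for driving mitochondrial biogenesis, had a mean of 8.79 at 0 h, 6.44 at 24 h and 9.45 at 72 h, a rise of 3.01 (SE 0.14, limma adjusted p = 1.6e-17). Of 17 TCA cycle genes 5 rose and 1 fell, with a median of 0.03, led by SUCLG2 (0.78) and IDH3A (-0.61). Between 0 and 24 h the ribosomal protein genes had gone the other way, with 42 rises and 3 falls and a median of 0.32, as had import and carriers with 20 and 6 and a median of 0.35.

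**Figure D5:**
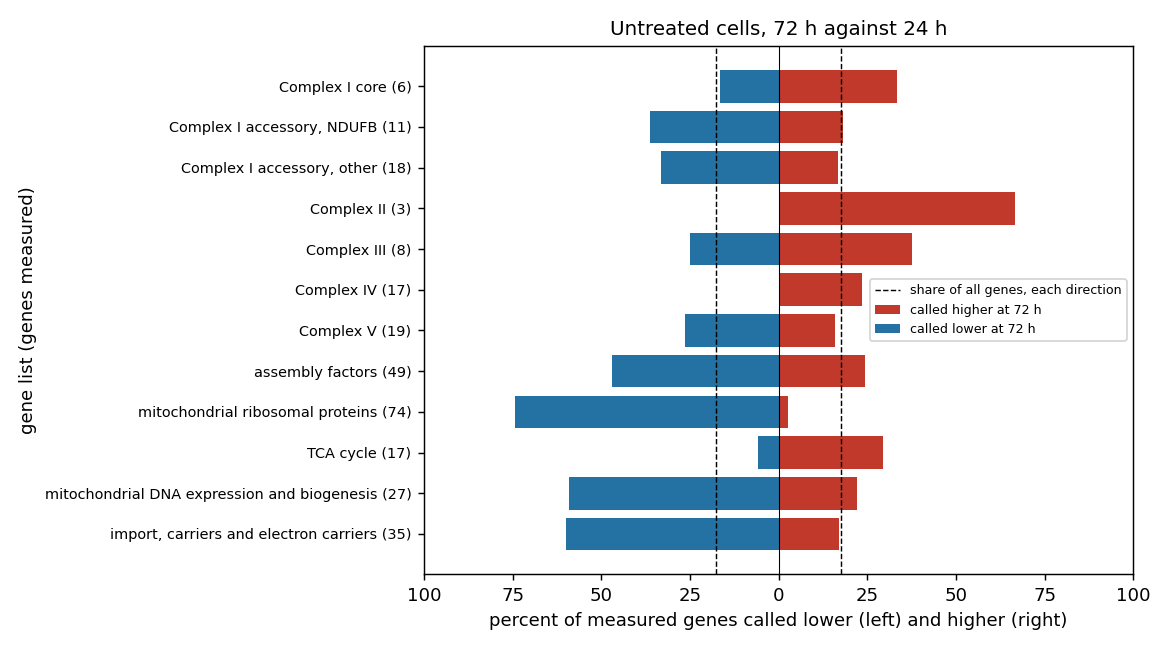
Percent of measured genes (x axis) called lower (blue, left) and higher (red, right) at 72 h against 24 h in untreated cells, for the complexes and for other mitochondrial gene lists (y axis, genes measured in brackets), with dashed lines at the share of all genes in each direction (17.7%). Mitochondrial ribosomal proteins (55 of 74 lower) stand at the left, and complexes II and IV have no gene called lower.

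With Pu27 at 72 h, where 5.08% of all genes were called, 10.2% of the assembly factor genes, 5.41% of the ribosomal protein genes, 5.88% of the TCA cycle genes, 7.41% of the genes for mitochondrial DNA expression and biogenesis and 5.71% of those for import and carriers were called, beside 1.22% of the members. There were 2 rises and 3 falls among the 49 assembly factor genes. The smallest p-values were those of UQCC2, a factor for complex III assembly (0.33, limma adjusted p = 0.0044), and CMC2 (0.44, limma adjusted p = 0.0096). CMC2 was also called with Pu9- at 72 h (0.48, limma adjusted p = 0.019), where 0.96% of all genes were called. With Pu5- at 72 h it read 0.38 (limma adjusted p = 0.098). The ribosomal protein genes had 1 rise and 3 falls (MRPL45 at -0.39 and MRPS27 at -0.43), and the TCA cycle 1 rise (IDH2 at 0.41). Mitochondrial DNA expression and biogenesis had 2 falls (SSBP1 at -0.33 and PPARGC1A at -0.56). Import and carriers had 1 rise and 1 fall (PHB1 at 0.30 and SLC25A3 at -0.38). Apart from CMC2, no gene of these lists was called with Pu9- or Pu5- at 72 h. MRPL45 read -0.29 with Pu9- and -0.28 with Pu5-.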

How the data were processed

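Gene expression was read on 39 arrays of U937 RNA, grouped by title into 13 groups of 3. The deposited values are log2 intensities: RMA (background correction, quantile normalisation and summary per probe set) and limma are the tools named for the authors in the submitters' processing notes. Their versions, and a genome build, were not given in the sources used. RMA makes array distributions alike and compresses differences between dim probe sets. Both deposited tables held identical shared values.

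Of 49293 probe sets other than controls, 44988 had a single symbol in the platform annotation, for 18132 genes. The brightest probe set by mean over the arrays stood for a gene, without a filter. Of the members, 50 of 82 had more than 1 probe set (188 in all), and 4 had a mean under 5.

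A limma 3.58.1 model (R 4.3.3) with a mean per group was fitted to all genes and arrays (26 residual and 7.13 prior degrees of freedom), without covariates. P-values were adjusted by Benjamini-Hochberg over all genes within a comparison, with a threshold of 0.05 and intervals at 95%. The script was tested on simulated data. The number of arrays limits the precision.

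The members, lists and comparisons were chosen with earlier results of these data known, and the 72 h against 24 h comparisons of the treated arms, and the c subunit genes and the other single members described outside the naming rule, were chosen after values were seen. Named members were all those called, or the 10 largest in each direction, the 2 largest where none was called, the 2 with the smallest p per complex in untreated cells at 72 h against 24 h and with Pu27 at 72 h, and tissue isoforms. Alternatives were a fit of compared groups, a replicate block, a common median, a filter on dim genes, the mean of probe sets, ACTB 3′ minus 5′ as a covariate and left-out arrays.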

Additional observations from a re-analysis of the deposited data

How the results depend on the processing

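Members called by limma at an adjusted p under 0.05 changed in number as follows. For Pu27 at 72 h the count of 1 became 0 when only the groups being compared were fitted, 4 with the replicate block (adding NDUFS8, NDUFS6 and ATP5F1C), 2 with dim genes left out (adding NDUFS6), 2 with the mean of all probe sets (NDUFS6 and ATP5PB in place of UQCRQ) and 2 with the ACTB covariate (adding NDUFS8). For the Pu27 mean over the times the count of 1 became 3 with the replicate block, 2 with dim genes left out and 4 with the ACTB covariate, where NDUFA6, UQCR10 and ATP5MC1 joined UQCRQ. In the fit of compared groups the counts became 19 for untreated cells at 24 h against 0 h (from 32), 0 at 48 h against 0 h (from 6), 7 at 72 h against 0 h (from 27) and 28 for Pu9- at 72 h against 24 h (from 43), and with the replicate block the 48 h count became 12. The cause was not tested. Elsewhere the replicate block kept counts within 1.5 times. The deviations from group means correlated above 0.1 in 138 of 234 same-numbered pairs, so the numbers were not taken as a pairing, though 33 of 39 arrays correlated best with their own number.

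With an array, or all arrays of a number, left out, counts ran from 18 to 31 (untreated 24 h against 0 h), 0 to 7 (48 h against 0 h), 5 to 25 (72 h against 0 h), 25 to 37 (72 h against 24 h), 25 to 34, 25 to 40 and 26 to 39 (Pu27, Pu9- and Pu5-, 72 h against 24 h), 0 to 2 (Pu27 at 72 h), 0 to 2 (Pu27 mean) and 0 to 2 (Pu9- at 72 h, where NDUFB1 was called without its 72 h array of replicate 1). The F test for Pu9- ran from 0 to 1, NDUFB1 again, without that array. The Pu27 mean had 2 calls without the untreated 48 h array of replicate 1 (NDUFA6) or the Pu27 72 h array of replicate 3 (COX4I2). The other oligonucleotide comparisons stayed at 0 under every setting run. Among named members 1495 values kept their call, or without one moved by less than the spread, 10 uncalled values moved by more, 122 lost and 11 gained a call. Of called values 1, UQCRB between 24 and 72 h, turned to -0.11 with the mean of probe sets, and 5 uncalled values (COX6B2, ATP5IF1, UQCRHL and UQCRC1) turned sign with arrays left out. Members' medians moved by more than the spread in 8 values and by less in 394.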
